A study of Mus musculus with 6 samples.

Results

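The 10 genes described here encode proteins of the acute phase response (Saa1, Saa3, Orm1, Hp and Cp), the lipocalin Lcn2, the subunits of calprotectin (S100a8 and S100a9) and the metallothioneins Mt1 and Mt2. They were chosen by their symbols from the 55335 genes of the count table, in part because Lcn2 was higher in the older mice of these same libraries. Differences between the ages over these 10 genes are therefore a description and carry no test. Of the 10 genes, 8 passed a filter on low counts and were fitted together with all 16612 genes that passed, while Saa1 and Saa3 did not pass.

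Whole aorta of mice with the genotype WT and the strain label c57b6l (male C57BL/6 mice in the study's methods) was sequenced at 6 weeks of age (young, n = 3) and at 6 months (aged, n = 3), with 1 library per mouse and no treatment in either group. The fat around the vessel was dissected away before RNA was taken. Levels of 1 gene between libraries are given as CPM, in which counts are divided by library totals balanced with TMM. Levels of the 10 genes are compared with each other as FPKM, which also divides by gene length. In the lists of other genes, the most abundant or leading gene is that with the highest mean CPM, which takes no account of length.

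The libraries held between 31049632 and 45832185 counts. The 8 smooth muscle markers, led by Acta2, summed to 33059 to 46280 CPM, as fits the labelled tissue. Young replicate 1 went against the stated sex, since Xist, the RNA that silences an X chromosome in female cells, had 14806 counts there and 7 to 24 in the other 5 libraries. Aged replicate 2 stood apart by its cell markers, with the highest adipocyte sum of the 6 libraries (5189 CPM, against 1215 to 3016 in young aorta and 1276 and 1798 in aged replicates 1 and 3) and the lowest fibroblast sum (3379 CPM). Differences between the ages are given without these 2 libraries where that moved them most. Mitochondrial genes took 14.9% to 21.2% of the counts in young and 23.1% to 30.4% in aged aorta. In whole vessel, more cells of a type and more RNA per cell cannot be told apart.

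Acute phase proteins are secreted into plasma, mainly by the liver, when cytokines such as interleukin 6 and interleukin 1 signal through STAT3, NF-kB and C/EBP factors, and several are also made locally in injured or inflamed tissue. Lcn2 binds bacterial siderophores and so withholds iron, calprotectin chelates zinc, manganese and calcium and is the main cytosolic protein of neutrophils, and metallothioneins are small cysteine-rich proteins that buffer zinc and copper. Metallothionein genes respond to zinc through the factor MTF1, which binds metal response elements, and to glucocorticoids.

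Mt1, Mt2, Lcn2 and S100a9 were higher in every aged than in every young library, and Saa3 had counts in all 3 aged and in no young library. Among the fitted genes the largest fold difference was that of Lcn2 at 8.71-fold, from a very low level, and the largest difference in CPM belonged to the metallothioneins, the most abundant of the 10 genes in aged aorta. Cp, Orm1, Hp and S100a8 overlapped between the ages, and Hp was the only fitted gene of the 8 whose mean was lower in aged aorta. Over the 8 fitted genes, 7 had a higher and 1 a lower fitted level in aged aorta and the median log2 fold change was 1.45, against 0.02 over all genes fitted. Of all genes fitted, 52.1% had a higher level in aged aorta.

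**Figure D1:**
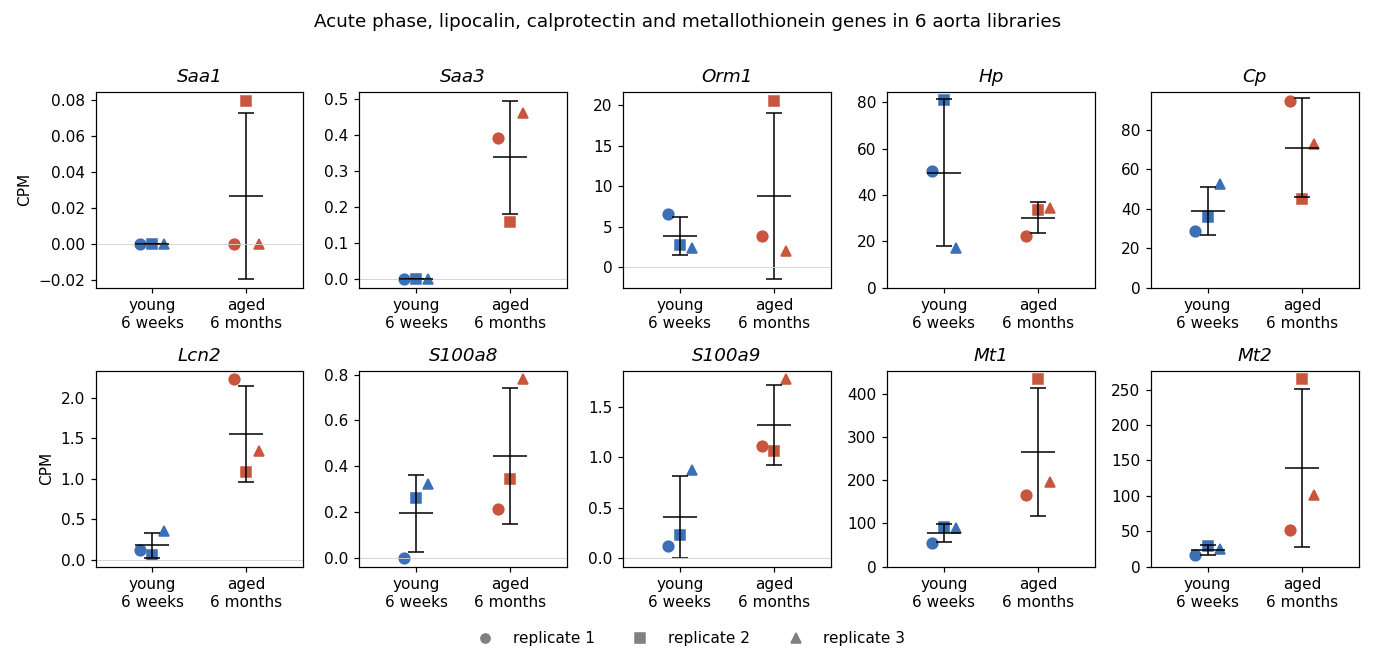
CPM of each of the 10 genes (vertical axes, separate scales) in the 3 young and 3 aged aorta libraries, with the mean and SD of each group as horizontal bars and whiskers; symbols mark the replicate number. Mt1, Mt2, Lcn2 and S100a9 do not overlap between the ages, and the highest Mt1, Mt2 and Orm1 values all belong to aged replicate 2.

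The quasi-likelihood test of edgeR gave 0 of 16612 genes (0.0%) an adjusted p below 0.05 (Benjamini-Hochberg), and the lowest adjusted p was 0.189. At an unadjusted p below 0.05 edgeR marked 1723 genes (10.4%), among them 4 of the 8 genes here, Cp, Lcn2, Mt1 and Mt2. DESeq2 gave 338 of 14955 genes an adjusted p below 0.05 (2.26%), among them Lcn2, Mt1 and Mt2, and limma on log2 FPKM gave 0. Every aged library lay above every young library for 1286 genes (7.74%), among them 4 of the 8, Lcn2, S100a9, Mt1 and Mt2. The genes were chosen on this contrast, so nothing is read from their share of these lists.

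**Figure D2:**
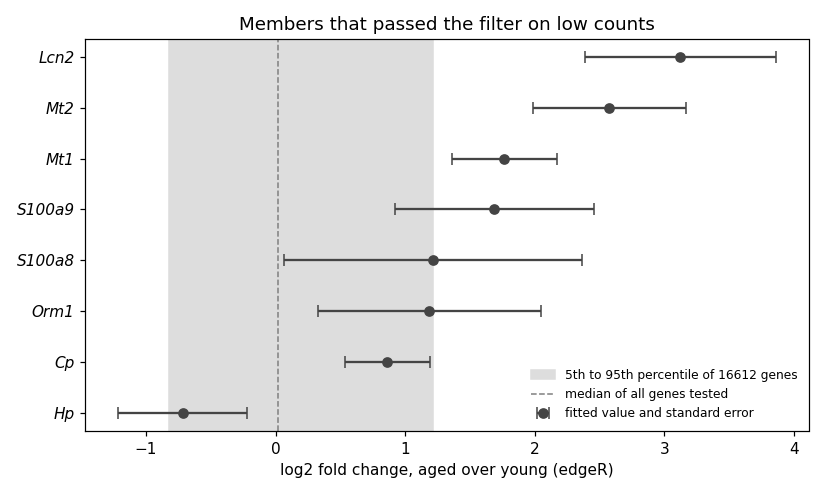
Fitted log2 fold change of aged over young aorta (horizontal axis, edgeR) with its standard error for the 8 genes that passed the filter on low counts; the grey band runs from the 5th to the 95th percentile of all 16612 genes fitted, from -0.82 to 1.21, and the dashed line marks their median. Lcn2, Mt2, Mt1 and S100a9 lie beyond the band, S100a8 lies at its edge, and Orm1, Cp and Hp lie inside it.

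The metallothionein genes lie close together on chromosome 8 of GRCm38 (GENCODE M21), both on the plus strand, Mt2 (ENSMUSG00000031762) from 94172664 to 94173568 and Mt1 (ENSMUSG00000031765) from 94179082 to 94180327. Both are protein-coding, and their stretches around the start are shown because zinc acts on these genes there through metal response elements. The 2 sequences are RefSeq promoter windows of GRCm38.p6, plus strand, 250 bases before to 50 bases after the RefSeq start. Matches on either strand of TGCNCNC, a loose form of the metal response element core in which N is any base, are in capitals.
Mt1, chr8:94178839-94179138: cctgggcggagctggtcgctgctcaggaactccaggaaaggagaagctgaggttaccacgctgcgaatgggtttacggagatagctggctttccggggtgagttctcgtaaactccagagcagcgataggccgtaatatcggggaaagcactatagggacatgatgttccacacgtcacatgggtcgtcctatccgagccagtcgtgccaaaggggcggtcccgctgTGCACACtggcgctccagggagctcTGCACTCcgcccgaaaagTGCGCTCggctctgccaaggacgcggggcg
Mt2, chr8:94172368-94172667: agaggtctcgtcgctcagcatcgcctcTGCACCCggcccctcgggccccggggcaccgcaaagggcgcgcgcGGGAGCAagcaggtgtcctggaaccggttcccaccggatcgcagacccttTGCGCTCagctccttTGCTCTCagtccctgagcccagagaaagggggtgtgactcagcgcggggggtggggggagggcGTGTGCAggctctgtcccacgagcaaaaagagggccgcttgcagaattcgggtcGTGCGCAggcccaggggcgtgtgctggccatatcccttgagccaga
The Mt1 window held 3 matches, beginning 23 bases before and 2 and 20 bases after the RefSeq start. The Mt2 window held 6, spread from 223 bases before to 4 bases after its start. At least 1 match was present in 53.62% of the 27025 genes with such a window, 3 or more in 8.04% and 6 or more in 0.26%. The match is to letters only and does not show binding. Bases outside the windows were not searched, so the positions and numbers of matches depend on the start that RefSeq gives. RefSeq places the Mt1 start 7 bases downstream and the Mt2 start 46 bases upstream of the GENCODE start.

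Mt1 was at 54.6, 91.2 and 88.7 CPM in young replicates 1 to 3 and at 165, 434 and 196 CPM in aged replicates 1 to 3. All aged libraries were above all young ones, and aged replicate 2 was the highest. The means were 78.1 ± 20.5 CPM (SD, n = 3) for young mice and 265 ± 147 CPM (SD, n = 3) for aged mice, a 3.39-fold difference with a log2 fold change of 1.76 (SE 0.41). Without aged replicate 2 the log2 fold change was 1.21, and without both that library and young replicate 1 it was 1.01.

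Mt2 was at 15.8, 29.0 and 25.1 CPM in the young and at 51.1, 265 and 101 CPM in the aged libraries. Again no aged value was as low as the highest young one, and aged replicate 2 was highest. The means were 23.3 ± 6.79 CPM (SD, n = 3) and 139 ± 112 CPM (SD, n = 3), a 5.96-fold difference with a log2 fold change of 2.58 (SE 0.59). The log2 fold change was 1.71 without aged replicate 2 and 1.50 without young replicate 1 as well. Of the 50-base words of Mt2 transcripts, 45.8% are shared with Gm45774, a gene on the other strand that overlaps it, so reads of the pair cannot be told apart in counts whose use of strand is not given here. Gm45774 had 115, 411 and 287 counts in the young libraries, where Mt2 had 766, 1010 and 861, and 589, 495 and 250 counts in the aged ones, where Mt2 had 1698, 9987 and 2849. Against Mt2 it was thus least in aged replicates 2 and 3, the libraries with the highest Mt2 to Mt1 ratio below.

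The pair did not keep the same proportion in every library. Per length, Mt2 was at 0.615, 0.676 and 0.601 times Mt1 FPKM in the young libraries and at 0.656, 1.29 and 1.09 times in the aged ones. Aged replicate 1 was thus within the young range for this ratio while being above every young library for both genes. In aged replicates 2 and 3 Mt2 was the more abundant of the pair. Mt1 shared no 50-base word with another gene. The other metallothioneins were at or near 0, with no count of Mt4 in any library and Mt3 too low to pass the filter.

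**Figure D3:**
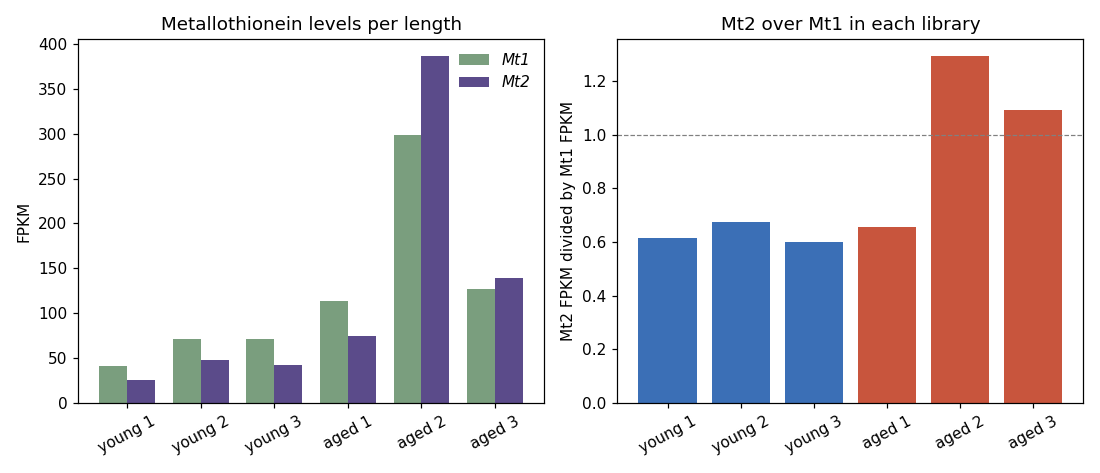
Left, FPKM of Mt1 and Mt2 in each library; right, Mt2 FPKM divided by Mt1 FPKM in the same libraries, with a dashed line at 1. The ratio lies between 0.601 and 0.676 in the young libraries and aged replicate 1 (0.656) and above 1 in aged replicates 2 (1.29) and 3 (1.09).

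Lcn2 (ENSMUSG00000026822), on chromosome 2 from 32384633 to 32388252 on the minus strand, encodes neutrophil gelatinase-associated lipocalin. Its RefSeq window is shown because C/EBP factors act on acute phase genes and Cebpb and Cebpd, described below, were higher in every aged library. The part of these factors in the Lcn2 level was not tested. The window runs from 250 bases before to 50 bases after the start along the minus strand. The match of the C/EBP motif TTGCNNAA is in capitals.
Lcn2, chr2:32387690-32387989: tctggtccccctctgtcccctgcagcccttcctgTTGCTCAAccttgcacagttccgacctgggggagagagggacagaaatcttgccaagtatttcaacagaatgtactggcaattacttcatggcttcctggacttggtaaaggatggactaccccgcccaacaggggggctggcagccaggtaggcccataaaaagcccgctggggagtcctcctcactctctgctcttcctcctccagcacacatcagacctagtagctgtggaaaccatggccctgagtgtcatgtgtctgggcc
The match begins 216 bases before the RefSeq start, which lies 513 bases downstream of the GENCODE start. Matches of TTGCNNAA were present in 12.2% of genes with such a window. Among the 8 of 10 genes with a window (none for Hp and Orm1), Saa1, Saa3, Cp, Lcn2, S100a9 and Mt2 held 1 match each, Cp in the second of its 2 windows. The STAT palindrome TTCNNNGAA, present in 9.55% of genes, was in none of the windows of the 8 genes, and the antioxidant response element TGACNNNGC, present in 13.99%, was in that of Mt2 alone. None of these matches overlapped another. Each search covered both strands, and a match is a description of letters and not a site.

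Lcn2 had 6, 2 and 12 counts in the young and 74, 41 and 38 counts in the aged libraries. The lowest aged count was above the highest young count, but all 6 are small next to the library totals. In CPM the values were 0.124, 0.0575 and 0.350 in young and 2.23, 1.09 and 1.34 in aged aorta, with means of 0.177 ± 0.153 (SD, n = 3) and 1.55 ± 0.598 (SD, n = 3). The log2 fold change was 3.12 (SE 0.74), which ranked at the 99.9th percentile of all genes fitted. Young replicate 3 had the highest young count, and without it the log2 fold change was 4.02. Without young replicate 1 and aged replicate 2 together it was 3.12. Lcn2 shared no 50-base word with another gene.

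S100a8 and S100a9, which pair to form calprotectin, lie on chromosome 3 from 90668978 to 90670035 on the plus strand (ENSMUSG00000056054) and from 90692632 to 90695721 on the minus strand (ENSMUSG00000056071). S100a9 was at 0.124, 0.230 and 0.874 CPM in young and at 1.11, 1.06 and 1.77 CPM in aged aorta. The groups did not overlap, although young replicate 3 lay close to the lower aged libraries. The means were 0.409 ± 0.406 (SD, n = 3) and 1.31 ± 0.395 CPM (SD, n = 3), with a log2 fold change of 1.69 (SE 0.77) that became 2.89 without young replicate 3. S100a8 had 0, 9 and 11 counts in young and 7, 13 and 22 counts in aged aorta. Those counts overlapped between the ages, as did the CPM of 0.193 ± 0.170 (SD, n = 3) for young mice and 0.445 ± 0.297 (SD, n = 3) for aged mice. Its log2 fold change of 1.22 had a standard error of 1.15, and it was 0.62 without young replicate 1 and 0.55 without aged replicate 3.

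Per length, S100a9 was 1.33 and 3.93 times S100a8 in young replicates 2 and 3 and 8.63, 4.40 and 3.07 times in the aged libraries, while young replicate 1 had no S100a8 count to divide by. With so few counts these ratios are loosely determined. The 12 neutrophil markers, led by Csf3r, the receptor for granulocyte colony-stimulating factor, summed to 1.06 to 1.84 CPM in young and 1.80 to 4.28 CPM in aged aorta. Only 2 of the 12 passed the filter, and Ly6g, Mmp8 and Stfa2l1 had no count in any library. Ngp had no count in young aorta and was at 0.692, 0.265 and 0.708 CPM in the aged libraries, and Retnlg, also at 0 in young aorta, was at 0, 0.106 and 0.177 CPM there. The other 6 markers overlapped between the ages. Csf3r was at 0.429 ± 0.277 CPM (SD, n = 3) for young mice and 1.17 ± 0.186 CPM (SD, n = 3) for aged mice (edgeR adjusted p = 0.458). The 12 macrophage markers, led by Lyz2, were all fitted and all had a higher fitted level in aged aorta. Their sums were 112 to 150 CPM in young and 158 to 505 CPM in aged libraries. Of these markers, Lyz2, C1qa, C1qb, C1qc, Fcgr1 and Ms4a7 overlapped between the ages. The part of neutrophils and macrophages in the Lcn2, S100a8 and S100a9 levels was not tested.

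The serum amyloid A genes, which encode apolipoproteins of high-density lipoprotein in the acute phase, lie on the minus strand of chromosome 7, Saa3 (ENSMUSG00000040026) from 46711998 to 46715700 and Saa1 (ENSMUSG00000074115) from 46740497 to 46742980. Saa3 is the member of the family made mainly outside the liver. It had 0 counts in each young library and 13, 6 and 13 counts in the aged ones. Those 32 aged counts are at least 12.6-fold higher, in CPM over each group, than the 3 counts over the young group that a count of 0 allows, a floor of 0.0255 CPM. Of the 50-base words of Saa3, 4.15% belong to a repeat found in 519 genes, and reads of that repeat cannot be assigned to Saa3 alone. Saa1 had 3 counts in aged replicate 2 and 0 elsewhere, which is at that floor, and no fold is given. Saa1 shares 31.5% of its 50-base words with Saa2 and Saa3, while Saa2 and Saa4 had no count in any library. Floors cover counting error only.

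Orm1, Hp and Cp encode plasma proteins. Orm1 (orosomucoid, a carrier of drugs and lipids; ENSMUSG00000039196, chromosome 4 from 63344560 to 63348163, plus strand) was at 6.56, 2.70 and 2.30 CPM in young and at 3.82, 20.6 and 1.98 CPM in aged aorta. The aged mean of 8.79 ± 10.2 CPM (SD, n = 3) rested on aged replicate 2, the young mean was 3.86 ± 2.35 CPM (SD, n = 3), and the lowest of all 6 values was an aged one. The log2 fold change of 1.19 (SE 0.86) turned to -0.41 without aged replicate 2. Orm1 shares 20.4% of its 50-base words with Orm2 and Orm3, and Orm3 had 74 counts in aged replicate 2, 31 in young replicate 1 and 6 in young replicate 2 and none in the other 3 libraries. The adipocyte sum of aged replicate 2 was given above, and its part in the Orm1 level was not tested.

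Hp (haptoglobin, which binds free hemoglobin; ENSMUSG00000031722) lies on chromosome 8 from 109575128 to 109579172 on the minus strand. It was at 50.6, 80.9 and 17.3 CPM in young and at 22.4, 33.7 and 34.4 CPM in aged aorta. Young replicates 2 and 1 were the highest and young replicate 3 the lowest of all 6 libraries, so the groups overlapped. The means were 49.6 ± 31.8 CPM (SD, n = 3) and 30.2 ± 6.70 CPM (SD, n = 3), with a log2 fold change of -0.72 (SE 0.50) that ranged from -1.11 without young replicate 3 to -0.16 without young replicate 2. Among the young libraries the order of Hp was that of the adipocyte sums, which were 1816, 3016 and 1215 CPM in young replicates 1 to 3. In aged replicate 2, where the adipocyte sum was highest, Hp was no higher than in aged replicate 3, and the part of adipocytes in the Hp level was not tested. The 10 hepatocyte markers, led by Alb, summed to 30.4, 113 and 176 CPM in the young and 52.1 to 78.3 CPM in the aged libraries. The part of hepatocytes in the Hp level was not tested. The 7 red blood cell markers, led by Hbb-bs, a chain of the hemoglobin that Hp binds, summed to 431 to 673 CPM in young and 392 to 878 CPM in aged libraries.

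Cp (ceruloplasmin, the copper-carrying ferroxidase of plasma; ENSMUSG00000003617) lies on chromosome 3 from 19957054 to 20009145 on the plus strand and overlaps Hps3 on the other strand, with which it shares 0.618% of its 50-base words. It was at 28.7, 35.9 and 52.3 CPM in young and at 94.8, 45.0 and 72.9 CPM in aged aorta. Aged replicate 2 lay below the highest young library, and the other aged libraries lay above all young ones. The means were 39.0 ± 12.1 CPM (SD, n = 3) and 70.9 ± 24.9 CPM (SD, n = 3), a log2 fold change of 0.86 (SE 0.32). The fibroblast sums were 3755, 4550 and 5832 CPM in young replicates 1 to 3 and 10079, 3379 and 7341 CPM in aged replicates 1 to 3. With aged replicate 2 set aside, the order of these sums was that of Cp. Over all 6 libraries it was not, since aged replicate 2 had the lowest sum and more Cp than young replicates 1 and 2. The 8 endothelial markers, led by Pecam1, summed to 358 to 523 CPM in 5 libraries and to 1672 CPM in aged replicate 3. The part of fibroblasts or endothelium in the Cp level was not tested.

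Per length, the order of mean FPKM in young aorta was Mt1 (61.5), Mt2 (38.9), Hp (30.0), Orm1 (4.82), Cp (3.98), S100a9 (0.774), S100a8 (0.250) and Lcn2 (0.0560), followed by Saa1 and Saa3 at 0. The ranges of neighbours in this order overlapped except between Hp and Orm1, Cp and S100a9, and Lcn2 and the serum amyloid genes. In aged aorta it was Mt2 (200), Mt1 (180), Hp (15.7), Orm1 (9.69), Cp (6.20), S100a9 (2.08), S100a8 (0.494), Lcn2 (0.476), Saa3 (0.101) and Saa1 (0.00610). There the metallothioneins lay above Hp in every library, and the ranges of Mt2 and Mt1, Hp and Orm1, Orm1 and Cp, and S100a8 and Lcn2 overlapped. The 10 genes thus ran from abundant transcripts down to the limit of detection.

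Over 6 libraries, the genes whose log2(CPM + 0.5) followed that of 3 of the 10 most closely were sought among 14095 genes whose mean CPM was 1 or more. For Lcn2 they were Cbfb (Pearson r = 0.994), Sorcs2 (0.989), Gm7993 (0.988), Kcnt2 (0.987) and Polr2l (0.986). For Mt2 they were Megf9 (0.989), Efhd2 (0.986), Gm10643 (0.986), Tmem229b (0.982) and Snhg1 (0.981). For Hp they were D17Wsu92e (0.981), Tbc1d22a (0.979), an unnamed gene with the identifier ENSMUSG00000116802 (0.975), Adar (0.974) and Vav3 (0.968). These points share 6 libraries in 2 age groups, and the coefficients are the highest of many, so they are a description.

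The signals that act on acute phase genes were described by a list of 27 cytokines, receptors and factors. Of the 23 fitted, 16 were higher and 7 lower in aged aorta and 0 passed the edgeR threshold, with 7 higher and 2 lower at an unadjusted p below 0.05. DESeq2 called 2, the C/EBP factors. The median log2 fold change was 0.23, against 0.02 over all genes, and it was 0.45 without aged replicate 2, 0.48 without young replicate 2 and 0.15 without young replicate 3. The shares to set beside this list and those below are over all genes. Of these, 52.1% were higher in aged aorta, 10.4% had an unadjusted edgeR p below 0.05 in either direction and DESeq2 called 2.26%. Cebpd, a factor induced in inflammation, was at 14.0, 17.9 and 19.6 CPM in young and at 70.9, 37.9 and 70.7 CPM in the aged libraries, and its log2 fold change was 1.80 (SE 0.28, edgeR adjusted p = 0.259, DESeq2 adjusted p = 4.63e-06). Cebpb was at 5.49, 5.52 and 4.90 CPM in young and at 16.0, 34.1 and 14.8 CPM in the aged libraries, and its log2 fold change was 2.03 (SE 0.35, edgeR adjusted p = 0.306, DESeq2 adjusted p = 5.54e-05). Both were higher in every aged library. The janus kinase Tyk2 (log2 fold change -0.48, edgeR adjusted p = 0.438) and the NF-kB regulator Nfkbiz (-0.67, edgeR adjusted p = 0.462) had lower values. The most abundant of the list were the receptor subunits Il11ra1, at 284 ± 30.2 CPM (SD, n = 3) for young mice and 333 ± 96.2 CPM (SD, n = 3) for aged mice, and Il6st, at 249 ± 16.6 and 247 ± 82.8 CPM (SD, n = 3 each). Il6 was at 0.259 ± 0.448 CPM (SD, n = 3) for young mice and 0.401 ± 0.318 CPM (SD, n = 3) for aged mice and did not pass the filter.

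**Figure D4:**
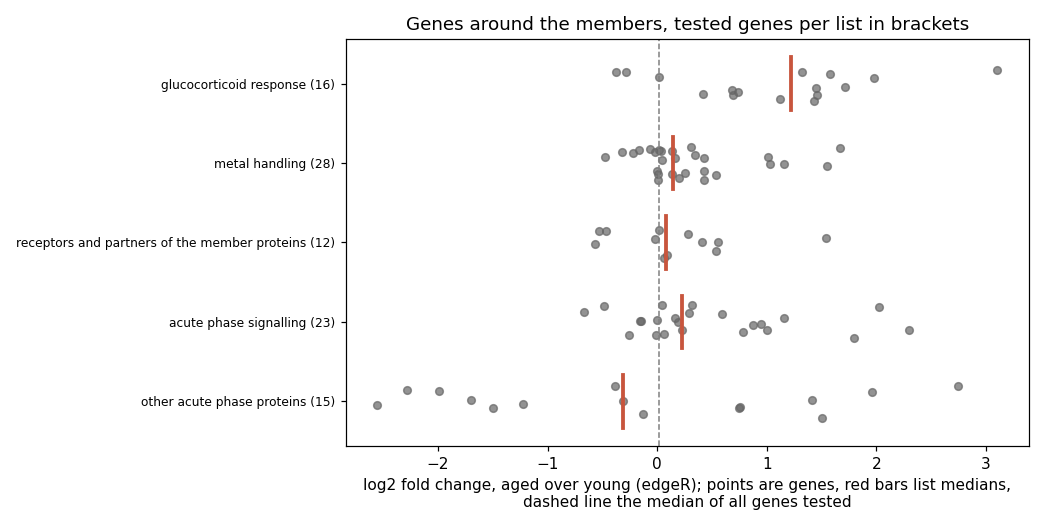
Fitted log2 fold change of aged over young aorta (horizontal axis, edgeR) for each gene of 5 lists of genes related to the 10 by function, 1 point per gene; red bars mark the median of a list and the dashed line that of all genes fitted (0.02). The glucocorticoid response list has the highest median (1.22), also with any 1 library left out, while the other acute phase proteins have the lowest (-0.31) with all 6 libraries but not without young replicate 1 (0.10) or young replicate 3 (0.29). The lists were chosen with earlier results of these data known.

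Other acute phase proteins had no common direction. Of the 25 genes with a row, 15 were fitted, 6 were higher and 9 lower, and 0 passed the edgeR threshold, with 4 higher and 1 lower at an unadjusted p below 0.05, and the median log2 fold change was -0.31. That sign was not kept each time a library was left out. The filter was run again each time, so 16 to 18 genes were fitted in place of 15, and the median moved with the genes as well as the libraries. It was 0.10 without young replicate 1, 0.29 without young replicate 3, 0.01 without aged replicate 2 and 0.02 without aged replicate 3, with 9 higher and 7 or 8 lower each time. It stayed below 0 without young replicate 2 (-0.07) or aged replicate 1 (-0.18). DESeq2 called 2 of them, C3 and Lbp. Complement C3 was at 145, 211 and 114 CPM in young and at 510, 211 and 616 CPM in aged aorta (log2 fold change 1.51, SE 0.42, edgeR adjusted p = 0.377). Lbp, which presents lipopolysaccharide to Cd14, was at 3.71, 8.02 and 6.21 CPM in young and at 37.1, 5.73 and 27.1 CPM in aged aorta (log2 fold change 1.96, SE 0.64, edgeR adjusted p = 0.400). In both genes aged replicate 2 lay within the young range, as it did for Cp. The fibrinogen chains Fgb (log2 fold change -2.56, SE 0.96, edgeR adjusted p = 0.443) and Fga (-2.28, SE 1.00, edgeR adjusted p = 0.490) were highest in young replicate 3, the library with the highest hepatocyte sum. Itih4, at 307 ± 108 CPM (SD, n = 3) for young mice and 281 ± 103 CPM (SD, n = 3) for aged mice, was among the most abundant of the list.

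Receptors and partners of the 10 proteins were described by a list of 14 genes, of which 12 were fitted. 8 were higher and 4 lower, 0 passed the edgeR threshold with 1 in each direction at an unadjusted p below 0.05, and the median log2 fold change was 0.08, or 0.03 to 0.22 with 1 library left out. DESeq2 called 1 of them, Cd163, which is also in the macrophage list. Cd163, the scavenger receptor of macrophages for complexes of haptoglobin and hemoglobin, was at 3.63, 8.65 and 3.56 CPM in young and at 16.2, 9.91 and 20.1 CPM in aged aorta (log2 fold change 1.54, SE 0.43, edgeR adjusted p = 0.377, DESeq2 adjusted p = 0.0336). Every aged library was above every young one for Cd163, while its ligand Hp overlapped. Slc22a17, a receptor for Lcn2, was at 23.5 ± 5.33 CPM (SD, n = 3) for young mice and 15.9 ± 2.15 CPM (SD, n = 3) for aged mice (log2 fold change -0.57, SE 0.22, edgeR adjusted p = 0.448). Bsg, a receptor for S100a9, was at 252 ± 25.8 and 306 ± 22.2 CPM (SD, n = 3 each; edgeR adjusted p = 0.563). Alcam, another partner of S100a9, was at 83.0 ± 40.6 and 60.2 ± 10.1 CPM, and Lrp1, the gene of the list with the highest mean CPM, at 648 ± 76.1 and 657 ± 204 CPM (SD, n = 3 each). Tlr4, which calprotectin engages, was at 18.4 to 20.1 CPM in 5 libraries and at 0.795 CPM in aged replicate 2.

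The median of the metal handling genes lay near that of all genes. Of 32 listed 28 were fitted, with 22 higher, 6 lower and 0 past the edgeR threshold, 4 higher ones at an unadjusted p below 0.05, and a median log2 fold change of 0.15, which was 0.26 without aged replicate 2 and 0.06 without aged replicate 1. DESeq2 called 2, Hmox1 and Ftl1. Hmox1, the inducible enzyme that degrades heme, was at 6.03, 5.78 and 6.50 CPM in young and at 15.7, 19.0 and 23.5 CPM in aged aorta (log2 fold change 1.67, SE 0.21, edgeR adjusted p = 0.189, DESeq2 adjusted p = 7.84e-08). Ftl1, the ferritin light chain, was at 195 ± 32.7 CPM (SD, n = 3) for young mice and 434 ± 133 CPM (SD, n = 3) for aged mice (log2 fold change 1.16, SE 0.27, edgeR adjusted p = 0.372). Fth1, the heavy chain and the most abundant gene of the list, was at 1232 ± 253 and 1787 ± 206 CPM (SD, n = 3 each; edgeR adjusted p = 0.446). Hmox1, Ftl1 and Fth1 were higher in every aged library. Mtf1, the zinc sensor that acts on Mt1 and Mt2, was at 14.0, 16.2 and 15.7 CPM in young and at 13.3, 10.6 and 9.06 CPM in aged aorta, lower in every aged library (log2 fold change -0.48, SE 0.21, edgeR adjusted p = 0.484). Slc30a1, the zinc exporter that MTF1 also acts on, was at 18.6 ± 4.75 and 15.9 ± 1.69 CPM (SD, n = 3 each; edgeR adjusted p = 0.752) and overlapped between the ages. The part of zinc or MTF1 in the Mt1 and Mt2 levels was not tested.

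Genes that respond to glucocorticoids had the highest median of the 5 lists. The list was chosen with earlier results of these data known, so its median and the genes called are a description. All 16 were fitted, 14 were higher and 2 lower, 0 passed the edgeR threshold with 7 higher ones at an unadjusted p below 0.05, and the median log2 fold change was 1.22. Without aged replicate 2 the median was 0.61, with 11 higher and 5 lower. DESeq2 called 5 of them, Tsc22d3, Fkbp5, Sult1a1, Lyve1 and Errfi1, against 2.26% of all genes. Fkbp5, a chaperone of the glucocorticoid receptor, was at 6.28, 16.4 and 14.7 CPM in young and at 55.6, 177 and 88.9 CPM in aged aorta (log2 fold change 3.11, SE 0.53, edgeR adjusted p = 0.306, DESeq2 adjusted p = 1.85e-07). Its order over all 6 libraries was that of Mt1 and Mt2, lowest in young replicate 1 and highest in aged replicate 2. The adipocyte sums given above had the same order over the 3 aged libraries. Over all 6 libraries they did not, since young replicate 1 (1816 CPM) lay above young replicate 3 (1215 CPM) and aged replicate 1 (1276 CPM). The part of glucocorticoids or adipocytes in the Mt1 and Mt2 levels was not tested. Sult1a1, a sulfotransferase, was at 27.3, 25.0 and 20.3 CPM in young and at 59.7, 61.6 and 60.6 CPM in aged aorta (log2 fold change 1.33, SE 0.16, edgeR adjusted p = 0.189). Nr3c1, the receptor itself, was at 126 ± 7.78 CPM (SD, n = 3) for young mice and 103 ± 15.1 CPM (SD, n = 3) for aged mice (edgeR adjusted p = 0.575), and lower in every aged library. Dusp1 (edgeR adjusted p = 0.738) was at 354 ± 156 and 272 ± 71.8 CPM, and Adamts1 (edgeR adjusted p = 0.422) at 172 ± 52.6 and 278 ± 33.3 CPM (SD, n = 3 each).

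**Figure D5:**
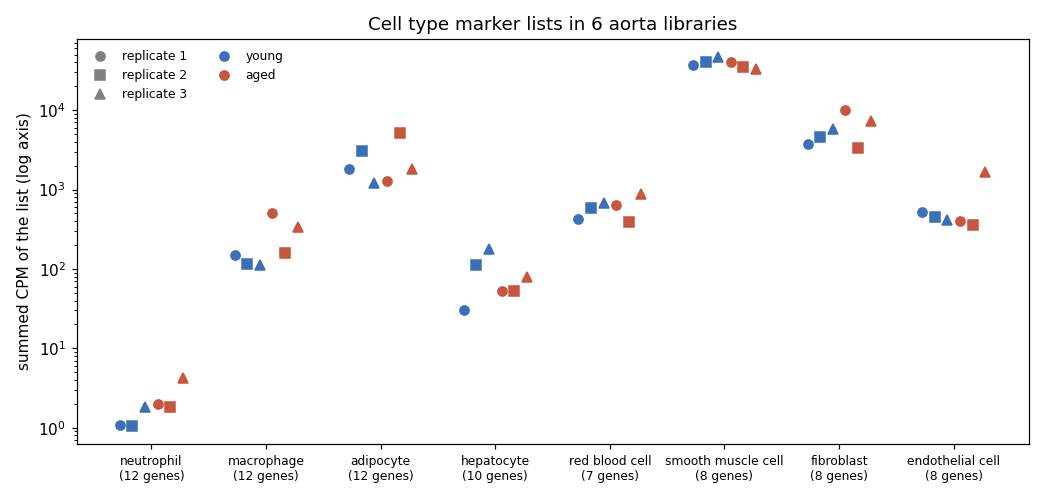
Summed CPM of 8 lists of cell type markers (vertical log axis) in each library, coloured by age and with symbols for the replicate number. The neutrophil sum is the lowest of the 8 in every library, at 1.06 to 4.28 CPM, and the adipocyte sum is highest and the fibroblast sum lowest in aged replicate 2.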

How the data were processed

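Total RNA of 6 mouse aortas was made into libraries with a SMARTER mRNA kit, which amplifies cDNA, and sequenced single-ended by the study. The authors deposited a table of read counts per gene and a table of FPKM, counts scaled by gene length and library total. The build is mm10 in the submitters' processing notes, and the aligner, counter, annotation and use of strand are not given in the sources used here. Group and replicate number come from the sample labels, and each library is 1 mouse. Gene positions are those of GRCm38 from GENCODE M21, which holds 55154 of the 55335 identifiers.

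Counts were filtered with edgeR 4.0.16 in R 4.3.3 (filterByExpr by age, minimum count 10, minimum total 15), normalized by TMM and fitted by quasi-likelihood without covariates. Benjamini-Hochberg adjustment ran over the 16612 genes fitted, at a threshold of 0.05, and the SE is the log2 fold change divided by the square root of F. Alternatives were DESeq2 1.42.0, limma 3.58.1 on log2(FPKM + 1) and log2(FPKM + 0.1), RLE size factors, other filters, the replicate number as a block and each library left out. The filter was run again whenever a library was left out, so the genes fitted differ a little. The fit was tested on simulated data. Floors use 3 counts.

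The 10 genes and all lists were chosen with earlier results of these data known. Named besides the 10 genes are, per list, the 2 genes with the smallest p in each direction, the 2 with the highest mean CPM and those DESeq2 called. Il6, Mt3, Mt4, Tlr4 and the neutrophil markers beside Csf3r were added after their values were seen. Proteins were not analysed here.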

Additional observations from a re-analysis of the deposited data

How the results depend on the processing

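The edgeR count of 0 genes called, and of 0 among the 10 genes and the related lists, was also found with RLE size factors, with no filter on low counts, with at least 10 counts in every library, with limma on log2 FPKM, and with the replicate block. The replicate numbers were not taken to pair the mice, since deviations of same-numbered libraries correlated at 0.08, 0.13 and 0.13, and with the replicate block 0 genes were called and 1782 had an unadjusted p below 0.05. DESeq2 called 338 genes, 3 of the 10 genes (Lcn2, Mt1 and Mt2) and 12 genes of the lists. Leaving out 1 library at a time gave 0 to 110 genes, 0 of the 10 genes and 0 to 6 genes of the lists, where 110 and 6 (Ftl1, Cebpb, Sult1a1, Cebpd, Hmox1 and Lbp) came when aged replicate 2 was left out. The cause was not tested. 2 settings were chosen after seeing the data, leaving out young replicate 1 with aged replicate 2 and leaving out mitochondrial genes, and both gave 0 genes. Over the alternatives run, the log2 fold change ranged from 0.48 (limma, pseudocount 1) to 4.02 for Lcn2, from 1.01 to 2.01 for Mt1, from 1.50 to 2.97 for Mt2, from 0.87 to 2.89 for S100a9, from 0.25 to 1.82 for S100a8, from 0.52 to 1.14 for Cp and from -1.11 to -0.16 for Hp. That of Orm1 ranged from -0.41 (without aged replicate 2) to 1.83, and it alone changed sign among the 8 genes. On log2 FPKM the median over all genes of the log2 fold change was -0.12 (pseudocount 1) or -0.19 (pseudocount 0.1). On that scale the signalling list had 11 genes higher and 12 lower with pseudocount 1, and the metal handling list 11 higher and 17 lower. Taken from counts in place of FPKM, the mean ratio of Mt2 to Mt1 was 0.297 in young and 0.478 in aged aorta. The few counts of Saa1, Saa3, Lcn2 and S100a8 limit how well their levels are known.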
